A study of Homo sapiens with 23 samples.

Results

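The genes described here are 10 known for roles in nerve cells: the endocytic receptor gene LRP1B, the adhesion genes TMEM132B, CNTNAP2, NCAM1 and CELSR3, the glutamate receptor gene GRIK2, the potassium channel gene KCND3, the adaptor gene SHC2 and the microtubule genes STMN3 and NAV3. They were taken as a fixed list from 28105 genes measured by RNA sequencing in the HCT116 line of human colorectal cancer. The members were selected on their measured changes in expression between the MLL4 KO and WT libraries. All 10 passed the filter on low counts, which kept 16831 genes. Because the MLL4 KO and WT libraries chose them, their differences between those groups are given as a description with no test, and so are differences between control and WT, which use the same WT libraries. BAP1 KO against control compared other libraries and was tested. Its test was not independent of the WT and MLL4 KO libraries, since the filter, scaling and spread estimate came from all libraries together.

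The RNA came from 4 groups of 2 libraries: WT, MLL4 KO, control and BAP1 KO. The labels give WT as the genotype of both WT and control cells, MLL4 KO for the MLL4 knockout and BAP1 KO for the BAP1 knockout, with no treatment or age listed for an RNA library. The deposited tables of control and BAP1 KO carry osTir1, a plant receptor used for induced protein degradation, in their names, and those of WT and MLL4 KO do not. A treatment text shared by all samples describes doxycycline-induced T7-tagged BAP1 in WT and MLL4 KO cells for Western blot and ChIP-seq. Cells grew in McCoy's 5A medium with serum. Whether a knockout line is 1 clone, and whether 2 libraries of a group came from separate cultures, is not stated in the labels, so p-values measure only the spread between these libraries. WT and MLL4 KO on one side and control and BAP1 KO on the other may be separate experiments, and a difference between the 2 sides cannot be told apart from one between experiments.

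MLL4, the product of KMT2D, methylates histone H3 at enhancers, where it leaves the H3K4me1 mark. BAP1 is a deubiquitinase that removes ubiquitin from histone H2A. Colon epithelial cells do not normally use the 10 genes as neurons do: in the nervous system these proteins hold axons and synapses together, pass glutamate and potassium currents, relay growth factor signals and shape microtubules. Many such genes are kept at low levels outside neurons.

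Gene counts per library ran from 24817085 to 42220059. The transcripts of the targeted genes did not fall: KMT2D stood at 309 and 371 CPM (WT) beside 280 and 406 CPM (MLL4 KO), and BAP1 at 56.7 and 62.1 CPM (control) beside 67.4 and 57.4 CPM (BAP1 KO) (CPM is the count per 1e6 counts after TMM scaling). Whole-gene counts therefore do not check the knockout labels. Of 13 colon epithelial markers, 10 had a mean of 1 CPM or more, and CDX1 was at 0 in all 8 libraries. They summed to 3887 and 3756 CPM for WT and 5423 and 5500 CPM for MLL4 KO, with 5942 and 5954 CPM for control and 3062 and 3629 CPM for BAP1 KO. Of the 10 tested by edgeR, 3 were higher and 1 lower in MLL4 KO, and 1 was higher and 6 lower in BAP1 KO. In BAP1 KO the epithelial adhesion genes CDH1 and EPCAM fell, by log2 fold changes of -2.27 ± 0.38 and -1.33 ± 0.21 (edgeR adjusted p 0.00763 and 0.00314). KRT20, of the same list, rose there (3.43 ± 0.31, edgeR adjusted p 0.000197). In MLL4 KO, EPCAM also fell (-1.12 ± 0.21, edgeR adjusted p 0.0145) and KRT20 also rose (2.89 ± 0.41, edgeR adjusted p 0.00684). CDH1 differed between the unedited groups, at 1.75 ± 0.38 in control against WT. Neuronal markers summed to 259 and 215 CPM for WT and 266 and 324 CPM for MLL4 KO, with 212 and 224 CPM for control and 433 and 446 CPM for BAP1 KO, of which SYT1 made up 271 and 280 CPM. Of 15 neuronal markers, 6 had a mean of 1 CPM or more, and GAP43 and ELAVL4 were at 0 throughout. None of the 9 neuronal markers tested passed in MLL4 KO against WT by edgeR, and 3 rose and 1 fell in BAP1 KO. In BAP1 KO the neuroendocrine list summed to 172 and 318 CPM against 71.0 and 67.2 CPM in the control libraries, nearly all from SCG2, while INSM1 was at 0. Neither of its 2 tested genes passed there by edgeR (adjusted p 0.0576 for SCG2 and 0.0755 for SCG5). The part of these lists in the results below was not tested.

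The members were rare transcripts apart from STMN3. Per length, in the deposited RPKM, STMN3 averaged 51.8 in WT and 106 in MLL4 KO, and then 56.1 in the control group and 68.9 in BAP1 KO. No other member passed 4.30 RPKM in any group's mean. In MLL4 KO the order of mean RPKM after STMN3 was CELSR3 at 2.37, SHC2 at 1.82, TMEM132B at 0.785, KCND3 at 0.705, NCAM1 at 0.638, GRIK2 at 0.637, CNTNAP2 at 0.444, LRP1B at 0.322 and NAV3 at 0.0901. TMEM132B, KCND3, NCAM1 and GRIK2 lie close together in that order, within the spread between libraries. Bulk RNA cannot tell a few cells with more of a transcript from all cells with a little more.

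In MLL4 KO, 9 of the 10 members were higher than in WT and NAV3 was lower, and no member's MLL4 KO libraries overlapped its WT libraries. Among all tested genes 60.3% did not overlap in that comparison, and 19.1% passed the edgeR threshold; nothing is read from the members' count there, since this contrast chose them. The median log2 fold change was 2.90 over the members and 0.00 over all tested genes. In BAP1 KO the members went separate ways: TMEM132B, GRIK2 and KCND3 rose, NAV3 fell, and 6 did not pass. This is 4 of 10 at an adjusted p under 0.05 (edgeR quasi-likelihood test, Benjamini-Hochberg), beside 22.4% of all tested genes, with 12.1% higher and 10.4% lower. The libraries of 6 of 10 members did not overlap between BAP1 KO and control, against 72.2% of all tested genes. The members' median there was 0.22, and that of all tested genes 0.01.

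**Figure D1:**
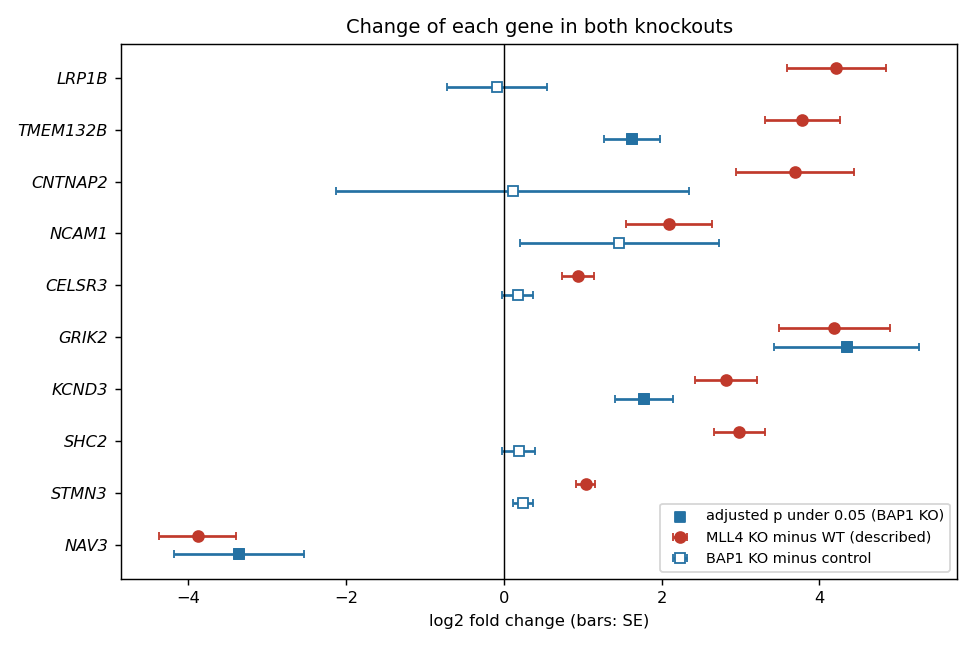
Log2 fold change of each member in MLL4 KO against WT (red circles, described with no test) and in BAP1 KO against control (blue squares, filled where the adjusted p is under 0.05), with bars for the standard error. Filled squares mark TMEM132B, GRIK2, KCND3 and NAV3, and the bar of CNTNAP2 in BAP1 KO (0.11 ± 2.24) is the widest.

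GRIK2 encodes GluK2, a subunit of the kainate class of glutamate-gated ion channels. It was nearly silent in both unedited groups, with WT at 0.349 and 0.0938 CPM and control at 0.157 and 0.0513 CPM, and it stood at 5.37 and 2.17 CPM in MLL4 KO and 2.52 and 1.39 CPM in BAP1 KO. All 4 knockout libraries thus lay above all 4 unedited ones. The reads behind the control libraries numbered 4 and 2, and those behind the BAP1 KO libraries 79 and 39. Its log2 fold change was 4.19 ± 0.70 (SE) in MLL4 KO and 4.35 ± 0.92 in BAP1 KO, where the edgeR adjusted p was 0.00891. With so few control reads the size of that rise depends on the fit. The MLL4 KO value was 3.35 without MLL4 KO replicate 1, 3.46 without WT replicate 2 and 5.31 without WT replicate 1.

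KCND3 encodes Kv4.3, a channel subunit of the fast A-type potassium current. It was measured at 1.36 and 0.625 CPM in WT cells, 7.17 and 6.32 CPM in MLL4 KO, 1.72 and 1.46 CPM in the control libraries and 6.86 and 3.88 CPM in BAP1 KO. Every knockout library was again above every unedited one, and the MLL4 KO and BAP1 KO libraries overlapped. The fitted log2 fold change was 2.81 ± 0.39 in MLL4 KO and 1.78 ± 0.37 in BAP1 KO, with an edgeR adjusted p of 0.00884 in the latter. The MLL4 KO value was 3.43 without WT replicate 1 and 2.32 without WT replicate 2.

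TMEM132B encodes a single-pass membrane protein of a small family linked to cell adhesion. Its levels were 1.55 and 0.188 CPM in WT cells, 12.02 and 10.33 CPM in MLL4 KO, 4.23 and 4.95 CPM in the control libraries, and 13.9 and 14.6 CPM in BAP1 KO. Both knockouts reached a like level from unedited groups that differed, since control lay above WT. The log2 fold change was 3.79 ± 0.47 in MLL4 KO and 1.63 ± 0.36 in BAP1 KO, with an edgeR adjusted p of 0.0126 in the latter.

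NAV3, a neuron navigator gene whose protein binds growing microtubule ends, moved the other way. WT held 18.2 and 13.9 CPM, against 0.341 and 1.99 CPM in MLL4 KO. In control it was at 2.27 and 2.59 CPM, and in BAP1 KO at 0.319 and 0.142 CPM. The WT libraries were thus far above the other 6, and the BAP1 KO libraries were the lowest group. Its log2 fold change was -3.88 ± 0.49 in MLL4 KO and -3.36 ± 0.83 in BAP1 KO, where the edgeR adjusted p was 0.0218. The BAP1 KO libraries held 10 and 4 reads of it. In MLL4 KO it was at -3.01 without MLL4 KO replicate 1 and -5.52 without MLL4 KO replicate 2.

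These 4 calls in BAP1 KO depended on single libraries of that comparison. Without control replicate 1, control replicate 2 or BAP1 KO replicate 1, 0 of the 10 members passed, and without BAP1 KO replicate 2, GRIK2 and KCND3 still did. The direction of all 4 held in each of the 18 alternatives. In those alternatives GRIK2 kept a log2 fold change of 3.61 to 5.16 and an edgeR, limma or DESeq2 adjusted p of 9.840e-06 to 0.131. TMEM132B ran from 1.52 to 1.74 with adjusted p from 0.000190 to 0.157, KCND3 from 1.30 to 2.12 with 0.000376 to 0.103, and NAV3 from -4.07 to -2.93 with 3.495e-06 to 0.115. TMEM132B did not pass with DESeq2.

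The bases before the annotated starts of these 4 genes are shown because they differ in CG content, the dinucleotide that carries DNA methylation. The sequences are RefSeq's on GRCh38.p14, 250 bases upstream of a start, 5′ to 3′ on the gene's strand, in lower case with each CG in capitals. For TMEM132B this is chr12:125186136-125186385 (plus strand), for GRIK2 chr6:101393458-101393707 (plus strand), for KCND3 chr1:111989669-111989918 (minus strand) and for NAV3 chr12:78036364-78036613 (plus strand). Those of TMEM132B, GRIK2 and KCND3 lie at the 5′ end of the annotated gene. Both NAV3 windows lie within the gene, which begins at chr12:77571862, and no window at its 5′ end was available. The NAV3 stretch is therefore not like for like with the others, and the CG content at its 5′ end was not measured here.
TMEM132B: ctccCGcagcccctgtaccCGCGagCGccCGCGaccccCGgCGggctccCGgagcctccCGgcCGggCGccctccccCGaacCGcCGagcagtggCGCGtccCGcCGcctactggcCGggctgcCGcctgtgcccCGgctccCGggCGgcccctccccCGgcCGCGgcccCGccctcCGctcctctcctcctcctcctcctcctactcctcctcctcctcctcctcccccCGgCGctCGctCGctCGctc
GRIK2: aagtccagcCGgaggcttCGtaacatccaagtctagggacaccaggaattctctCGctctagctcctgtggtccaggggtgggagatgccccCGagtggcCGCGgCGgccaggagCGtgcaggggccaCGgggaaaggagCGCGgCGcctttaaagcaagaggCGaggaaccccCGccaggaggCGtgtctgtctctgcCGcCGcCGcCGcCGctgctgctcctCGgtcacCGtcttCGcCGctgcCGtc
KCND3: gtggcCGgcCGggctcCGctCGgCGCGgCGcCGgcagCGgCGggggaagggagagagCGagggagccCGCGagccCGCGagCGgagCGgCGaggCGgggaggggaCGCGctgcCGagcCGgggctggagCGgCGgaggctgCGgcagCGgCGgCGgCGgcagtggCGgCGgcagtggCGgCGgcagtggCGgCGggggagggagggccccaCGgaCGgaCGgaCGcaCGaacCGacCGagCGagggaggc
NAV3: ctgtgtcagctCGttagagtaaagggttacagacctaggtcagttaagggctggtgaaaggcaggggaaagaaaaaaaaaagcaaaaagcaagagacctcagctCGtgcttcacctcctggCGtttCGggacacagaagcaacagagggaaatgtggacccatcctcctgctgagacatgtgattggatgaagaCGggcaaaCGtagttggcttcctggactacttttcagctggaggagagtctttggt

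The printed stretches hold 34 CG in TMEM132B, 25 in GRIK2, 44 in KCND3 and 6 in NAV3. In the full windows of 300 bases, 250 before to 50 after the start, the counts were 40, 33, 53 and 7. The median over 35116 RefSeq promoter windows was 14, with quartiles of 4 and 28, and only 0.464% of them held more CG than that of KCND3. The other NAV3 window held 2 CG. Of the members with 1 window each, SHC2 had 39 CG, STMN3 35, CELSR3 30 and CNTNAP2 16. In all, 8 of 10 members matched, with 13 windows. TMEM132B and GRIK2 also have later starts with fewer CG, at 5 and 0 for TMEM132B and 15 for GRIK2, and KCND3 has a second start with 24. Which start a member used in these cells cannot be read from the counts.

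The windows were also searched on both strands for the TATA box letters TATAAA, the E-box letters CACGTG, the AP-1 letters TGACTCA, and the GC-box letters GGGCGG. The last was found in a window of TMEM132B, CNTNAP2, CELSR3, STMN3 and SHC2, and in 45% of all promoter windows. No member window held the TATA box, E-box or AP-1 letters, which occur in 11.5%, 7.26% and 4.95% of all windows. These are matches of letters and not measured binding sites.

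LRP1B, CNTNAP2, NCAM1 and STMN3 had their highest levels in the 2 MLL4 KO libraries and did not pass in BAP1 KO. LRP1B encodes a large endocytic receptor of the LDL receptor family. It was measured at 0.465 and 0.250 CPM in WT cells, 9.17 and 3.61 CPM in MLL4 KO, 1.25 and 1.18 CPM in the control libraries and 1.47 and 0.784 CPM in BAP1 KO. BAP1 KO and control overlapped, and both lay above WT and below MLL4 KO. The fitted log2 fold change was 4.22 ± 0.63 in MLL4 KO and -0.09 ± 0.64 in BAP1 KO, with an edgeR adjusted p of 0.939 in the latter. Without MLL4 KO replicate 1 the MLL4 KO value was 3.37.

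CNTNAP2 encodes CASPR2, a neurexin-like protein that clusters potassium channels along myelinated axons. Its levels were 0.892 and 0 CPM in the WT libraries and 6.97 and 3.37 CPM in MLL4 KO. In control they were 0.157 and 0.0513 CPM, and in BAP1 KO 0 and 0.214 CPM. The WT libraries held 23 and 0 reads, where 3 reads, the limit that a count of 0 allows, equal 0.0937 CPM in WT replicate 2. The log2 fold change was 3.69 ± 0.75 in MLL4 KO, and it was 2.56 without WT replicate 2. Against WT replicate 2 alone, which held no read, the mean of MLL4 KO was at least 55.1-fold higher, a log2 of 5.78, from 3 reads in that library. In BAP1 KO against control the transcript was at 0 to 6 reads in all 4 libraries, having passed the filter through other libraries, and a difference was not detectable at this depth (0.11 ± 2.24, edgeR adjusted p 0.978).

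NCAM1 encodes the neural cell adhesion molecule also known as CD56. It was measured at 1.55 and 0.750 CPM in WT cells, 5.62 and 3.83 CPM in MLL4 KO, 0.392 and 0 CPM in the control libraries, and 0.128 and 0.784 CPM in BAP1 KO. The 2 BAP1 KO libraries lay on both sides of control replicate 1. Its log2 fold change was 2.09 ± 0.55 in MLL4 KO and 1.47 ± 1.26 in BAP1 KO, with an edgeR adjusted p of 0.446. The MLL4 KO value was 2.66 without WT replicate 1 and 1.62 without WT replicate 2. The order of the unedited groups differed from that of LRP1B, since NCAM1 was lower in control than in WT.

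STMN3 encodes SCLIP, a stathmin that destabilises microtubules, and was the one abundant member. It measured 178 and 149 CPM in WT cells, 336 and 337 CPM in MLL4 KO, 185 and 188 CPM in the control libraries and 227 and 215 CPM in BAP1 KO. Here the MLL4 KO libraries agreed closely, and BAP1 KO lay above control without overlap. The fitted log2 fold change was 1.04 ± 0.12 in MLL4 KO and 0.24 ± 0.12 in BAP1 KO, with an edgeR adjusted p of 0.182. With only the 4 libraries of that comparison in the fit, the edgeR adjusted p was 0.0359. Whether any of these 4 genes responded less to BAP1 loss than to MLL4 loss was not tested, because the MLL4 contrast chose them.

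SHC2 and CELSR3 were lowest in WT, and their other 3 groups lay above it, as also for LRP1B, TMEM132B, STMN3 and KCND3. Unlike in those genes, the MLL4 KO libraries of SHC2 and CELSR3 did not both lie above control. SHC2 encodes an adaptor that couples growth factor receptors to Ras. It was at 0.853 and 0.594 CPM in WT cells, 4.69 and 6.75 CPM in MLL4 KO, 10.9 and 12.7 CPM in the control libraries and 14.0 and 13.0 CPM in BAP1 KO. The MLL4 KO level lay between the 2 unedited groups. The log2 fold change was 2.99 ± 0.32 in MLL4 KO, 4.05 ± 0.31 in control against WT, and 0.19 ± 0.21 in BAP1 KO, with an edgeR adjusted p of 0.561 in the last.

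CELSR3 encodes a seven-pass cadherin of the planar polarity system that guides axon tracts. It measured 19.9 and 17.1 CPM in WT cells, 28.6 and 42.6 CPM in MLL4 KO, 32.6 and 34.2 CPM in the control libraries and 33.7 and 41.8 CPM in BAP1 KO. MLL4 KO, control and BAP1 KO overlapped, and WT stood below all of them. Its log2 fold change was 0.94 ± 0.20 in MLL4 KO, 0.86 ± 0.20 in control against WT and 0.18 ± 0.20 in BAP1 KO, where the edgeR adjusted p was 0.567.

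**Figure D2:**
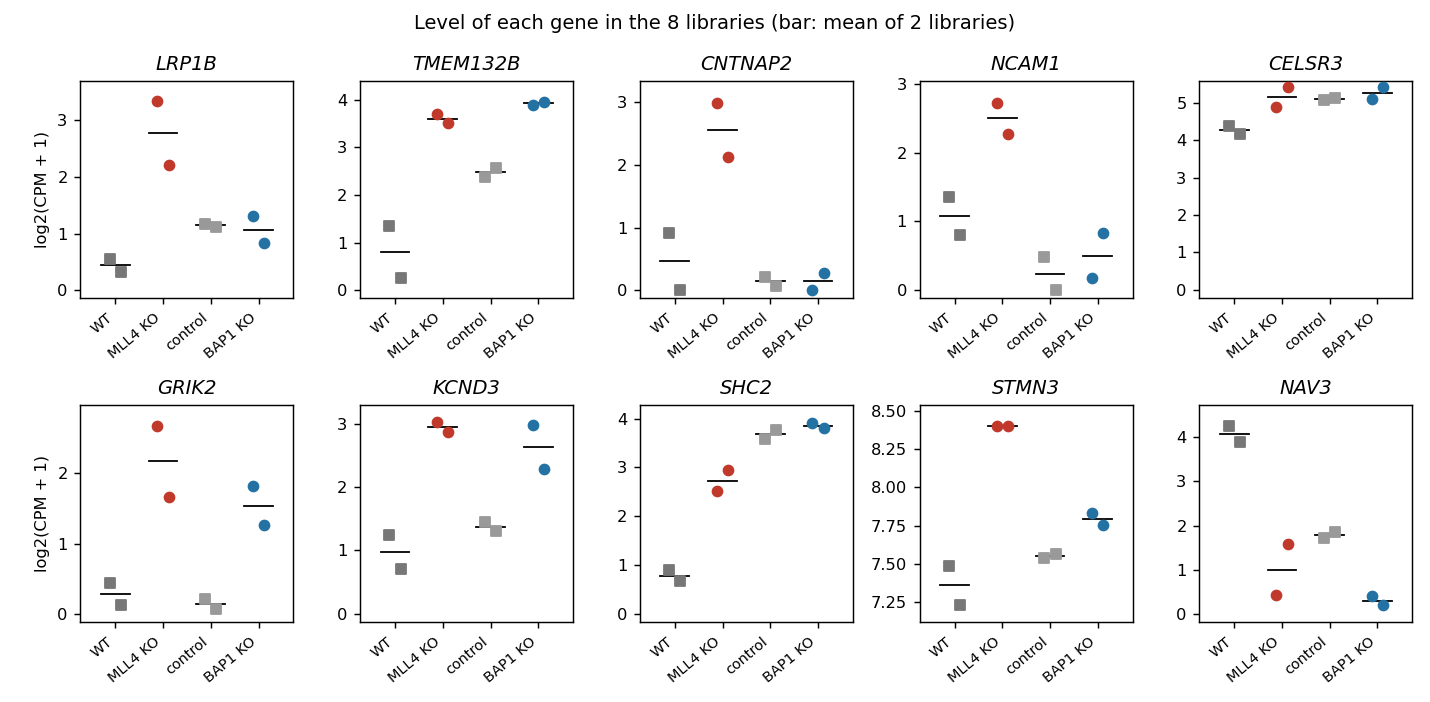
Level of each member in the 8 libraries as log2(CPM + 1), with squares for the unedited groups, circles for the knockouts and a bar for the mean of 2 libraries. The vertical scales differ between panels, and that of STMN3 does not start at 0; SHC2 and NAV3 show the distance between WT and control.

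Both unedited groups carry the WT genotype in the labels. Between them 8 of 10 members did not overlap. This is near the share of all tested genes, 73.6%, so nothing is read from the members' count. LRP1B, TMEM132B, CELSR3, STMN3, SHC2 and KCND3 were higher in control than in WT, and NCAM1 and NAV3 were lower. The log2 fold changes of control against WT were 1.79 ± 0.82 for LRP1B, 2.51 ± 0.52 for TMEM132B, -2.80 ± 1.04 for NCAM1 and -2.71 ± 0.45 for NAV3. Those of STMN3 and KCND3 were 0.19 ± 0.12 and 0.71 ± 0.48. The WT libraries also differed from each other more than the control libraries did (Pearson's r of log2 levels across genes 0.985 and 0.997), as for TMEM132B at 1.55 and 0.188 CPM. Without WT replicate 1 its log2 fold change in MLL4 KO was 5.87, and without WT replicate 2 it was 2.85.

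The transcript rows of a member gave like values. A gene was represented by its transcript row with the most reads, and TMEM132B has 3 rows whose log2 ratios of mean CPM, with 0.1 CPM added, ran from 3.48 to 3.97 in MLL4 KO and 1.62 to 1.88 in BAP1 KO. The 5 rows of NCAM1 ran from 1.69 to 1.95 in MLL4 KO and the 4 rows of KCND3 from 2.65 to 2.69. Isoforms share most of their exons, so these rows are not independent. Of the genes in the tables that overlap a member, NCAM1-AS1 was at no more than 0.228 CPM and MIR4793, within CELSR3, at no more than 0.588 CPM. The libraries were made with a kit that is not stated to keep the strand, so reads of an antisense gene cannot be told apart from those of the member.

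Most members are long genes. By RefSeq on GRCh38.p14, CNTNAP2 spans 2304 kb at chr7:146116801-148420998, and no tested gene is longer. LRP1B spans 1900 kb at chr2:140231423-142131016, GRIK2 676 kb at chr6:101393708-102070083 and NAV3 641 kb at chr12:77571862-78213010. TMEM132B spans 476 kb at chr12:125186386-125662377 and NCAM1 317 kb at chr11:112961420-113278436. KCND3 spans 219 kb at chr1:111770662-111989668, SHC2 44.5 kb at chr19:416589-461033, CELSR3 26.4 kb at chr3:48636463-48662886 and STMN3 13.7 kb at chr20:63639712-63653424. So 6 of 10 reach 300 kb, a class of 510 tested genes. In that class 12.9% were higher and 4.90% lower in MLL4 KO against WT by edgeR, and 12% were higher and 12.7% lower in BAP1 KO against control. Among all tested genes the shares were 9.13% and 10% in MLL4 KO, and 12.1% and 10.4% in BAP1 KO. A link between gene length and the change was not tested.

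Around the members, most nearby genes did not share the change. The 3 nearest tested genes on each side, 60 in all, had a median log2 fold change of 0.04 in MLL4 KO and 0.07 in BAP1 KO. An absolute log2 fold change of 1 or more was reached by 9 of them in MLL4 KO and 6 in BAP1 KO, beside 12.6% and 15.1% of all tested genes. STMN3 was the exception in MLL4 KO, since its 6 neighbours had a median of 1.06. HELZ2, which encodes a nuclear helicase coactivator, was at 1.37 ± 0.13 there. TNFRSF6B, encoding the decoy receptor DcR3, was at 3.66 ± 0.64 and the read-through transcript RTEL1-TNFRSF6B at 2.04 ± 0.18. The last 2 share sequence, so their reads may be split between them and they are not separate evidence. The other neighbours did not all follow: RTEL1 fell there (-0.71 ± 0.13, edgeR adjusted p 0.0114), and GMEB2 was at 0.03 ± 0.16. In BAP1 KO, HELZ2 rose (0.90 ± 0.13, edgeR adjusted p 0.00179), and the other two were at -0.32 and -0.25 and did not pass.

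Near the other members single genes reached an absolute log2 fold change of 1. CXCR4, a chemokine receptor gene 4.12 Mb from LRP1B, was at 4.56 ± 0.88 in BAP1 KO, from a mean of 0.118 CPM in control to 2.26 CPM (edgeR adjusted p 0.00552). POPDC1, a membrane protein gene 3.70 Mb from GRIK2, was at 1.66 ± 0.32 there (edgeR adjusted p 0.00602). SYT1, a synaptic vesicle calcium sensor gene 1.29 Mb from NAV3, was at 1.48 ± 0.59 with an edgeR adjusted p of 0.130, while NAV3 itself fell. ANKK1, a kinase gene beside NCAM1, was at 1.77 ± 0.68 in MLL4 KO, and TMPRSS5, a serine protease gene on the same side, at -1.49 ± 0.59, and neither passed (edgeR adjusted p 0.0946 and 0.105). C2CD4C, 0.0111 Mb from SHC2, rose in BAP1 KO (1.12 ± 0.28, edgeR adjusted p 0.0205). NXPH2 near LRP1B and GHET1 near CNTNAP2 were at -1.54 ± 0.63 and -1.08 ± 0.51 there. Neither passed (edgeR adjusted p 0.111 and 0.166). In MLL4 KO, LINC00944 near TMEM132B was at 1.14 ± 0.75 and LINC02762 near NCAM1 at 1.26 ± 0.60. CIMAP1D near SHC2 was at 1.07 ± 0.96 and LOC101928718 near KCND3 at 1.47 ± 0.84 in MLL4 KO. None of these passed there by edgeR.

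**Figure D3:**
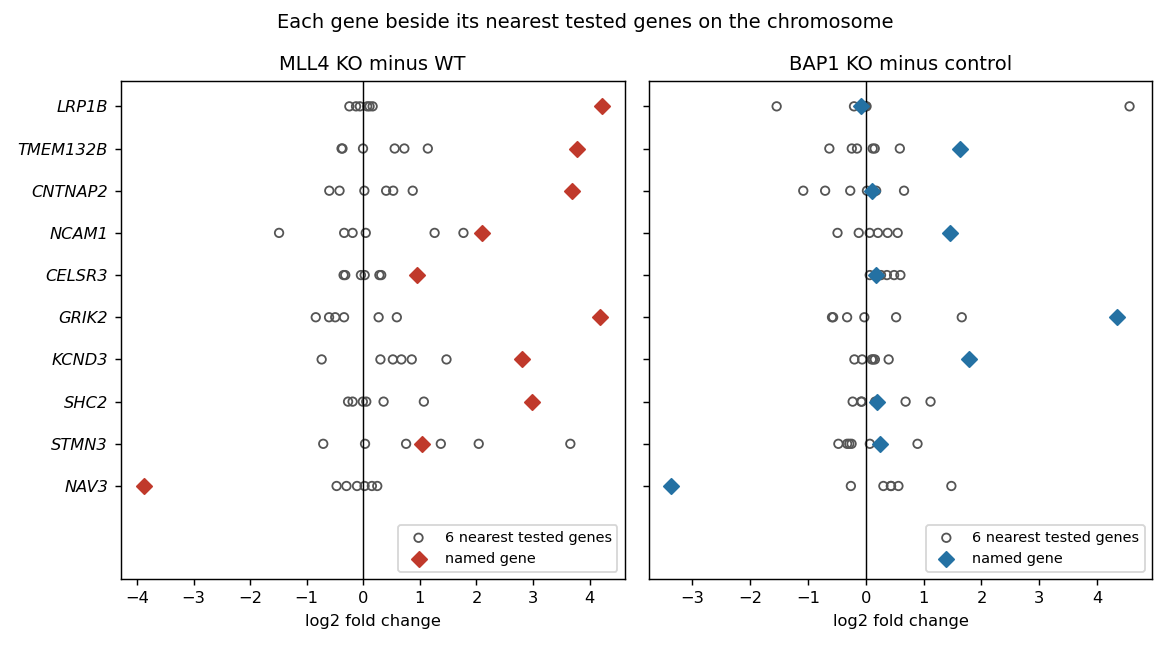
Log2 fold change of each member (diamonds) and of its 6 nearest tested genes (open circles) in MLL4 KO against WT and in BAP1 KO against control. In MLL4 KO most members lie outside their neighbours' range and STMN3 lies within it.

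The other genes of the members' families and pathways were followed through 12 lists holding 190 further genes, of which 128 were tested. In MLL4 KO against WT, 27 were higher and 5 lower at an edgeR adjusted p under 0.05, or 21.1% and 3.91%, beside 9.13% and 10% of all tested genes. In BAP1 KO against control, 33 were higher and 12 lower, or 25.8% and 9.38%, beside 12.1% and 10.4% of all tested genes. The lists were chosen with earlier results of these data known, so nothing is read from these shares against those of all genes. The list medians were 0.28 and 0.17. These counts depend on single libraries: without MLL4 KO replicate 2 the MLL4 KO counts were 4 and 2, and without WT replicate 2 they were 5 and 2. Without control replicate 1 the BAP1 KO counts were 10 and 5, and without control replicate 2 they were 11 and 5. Over all 8 libraries left out in turn, the higher genes numbered 4 to 40 in MLL4 KO and 10 to 39 in BAP1 KO. With only the 4 libraries of a comparison in the fit, 1 gene was higher and 0 lower in MLL4 KO, and 49 were higher and 20 lower in BAP1 KO.

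**Figure D4:**
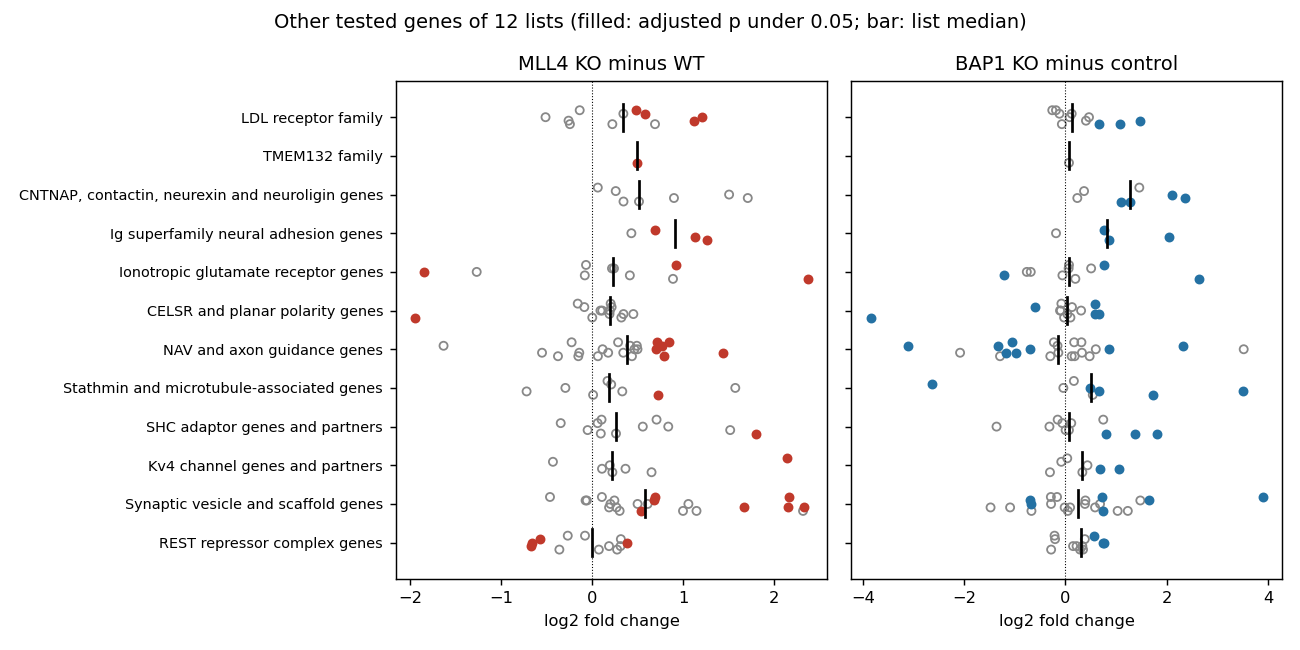
Log2 fold change of the tested genes of each list other than the members, filled where the adjusted p is under 0.05, with a bar for the list median. Most filled points lie to the right of 0 in MLL4 KO, and axon guidance genes lie on both sides in BAP1 KO.

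Among receptors related to LRP1B, 4 of 11 were higher in MLL4 KO and 3 of 11 in BAP1 KO, with none lower. LRP1, a large endocytic receptor of like build to LRP1B, rose in both, from 23.0 and 12.4 CPM in WT to 40.3 and 35.9 CPM in MLL4 KO and from 14.2 and 16.6 CPM in control to 45.1 and 41.3 CPM in BAP1 KO. The edgeR adjusted p was 0.0200 and 0.00354. So LRP1 passed in BAP1 KO, where LRP1B did not. Without MLL4 KO replicate 2 the first of these did not pass, at 0.0697. TMEM132A, the only other tested TMEM132 gene, was at 0.50 ± 0.13 in MLL4 KO (edgeR adjusted p 0.0333) and 0.07 ± 0.13 in BAP1 KO; the first passed in 1 of 8 fits that left out a library.

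Of 7 tested relatives and partners of CNTNAP2, 4 rose in BAP1 KO and none passed in MLL4 KO. CNTNAP1, the paranodal partner of contactin, rose from 16.5 and 17.2 CPM to 46.7 and 35.3 CPM (1.29 ± 0.17, edgeR adjusted p 0.00120), and it passed with any 1 library left out. NLGN2, a postsynaptic adhesion gene of inhibitory synapses, was at 1.103 ± 0.27 and did not pass once any 1 of the 4 libraries compared was left out. CNTNAP3 and CNTNAP3B, at 2.35 ± 0.55 and 2.10 ± 0.52, are near-identical copies whose reads may be split, so both are uncertain. They did not pass without control replicate 1, control replicate 2 or BAP1 KO replicate 1.

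Among NCAM1's immunoglobulin relatives only 4 of 18 were tested, and the same 3 rose in both knockouts: NFASC, L1CAM and CADM4. NFASC, which anchors axonal nodes, went from 0.666 and 1.1 CPM in control to 3.35 and 4.35 CPM in BAP1 KO (2.05 ± 0.34, edgeR adjusted p 0.00303), and passed with any 1 library left out. In MLL4 KO it was at 1.13 ± 0.30 and passed in 3 of the 8 fits that left out a library. L1CAM, an axon growth adhesion gene, was at 1.26 ± 0.24 in MLL4 KO and 0.86 ± 0.23 in BAP1 KO. The first did not pass without MLL4 KO replicate 2 and the second did not once any 1 of its 4 libraries was left out. For L1CAM the MLL4 KO libraries (29.8 and 38.1 CPM) overlapped the control libraries (33.1 and 29.5 CPM). The WT libraries lay below both, at 18.2 and 10.2 CPM, and control against WT was at 1.14 ± 0.24. CADM4 was at 0.70 ± 0.13 and 0.76 ± 0.13, and the first did not pass without WT replicate 2 or MLL4 KO replicate 2, nor the second without control replicate 1.

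Of 10 tested glutamate receptor genes beside GRIK2, 2 rose and 1 fell in each knockout. GRIK4, a partner subunit of GluK2, was at 2.37 ± 0.64 in MLL4 KO and 2.63 ± 0.76 in BAP1 KO, where it went from 0.313 and 0.333 CPM to 1.98 and 2.10 CPM (edgeR adjusted p 0.0364). That call was lost once any 1 of the 4 libraries was left out, and the MLL4 KO call held in 1 of 8 such fits. GRID1, a delta receptor gene, was at 0.93 ± 0.19 and 0.77 ± 0.18. The first did not pass without WT replicate 2 or MLL4 KO replicate 2. The second did not pass without control replicate 1, control replicate 2 or BAP1 KO replicate 1. As for L1CAM, the MLL4 KO libraries of GRID1 (10.6 and 11.9 CPM) overlapped those of control (9.67 and 11 CPM). The WT libraries of GRID1 were lower, at 5.62 and 6.16 CPM. GRIK5, another kainate subunit gene, fell in BAP1 KO (-1.21 ± 0.31, edgeR adjusted p 0.0225), although not without control replicate 1, control replicate 2 or BAP1 KO replicate 1. NETO2, the auxiliary subunit of kainate receptors, fell in MLL4 KO from 17.6 and 33.7 CPM to 6.37 and 8.01 CPM (-1.85 ± 0.28, edgeR adjusted p 0.00855). That call held with any 1 library left out, but not with only the 4 libraries of the comparison in the fit.

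The polarity list of CELSR3 had 13 tested genes. VANGL2, a core planar polarity gene, fell from 1.45 and 1.13 CPM to 0.0319 and 0.142 CPM in BAP1 KO (-3.85 ± 0.65, edgeR adjusted p 0.00292), also with any 1 library left out. It also fell in MLL4 KO (-1.94 ± 0.33, edgeR adjusted p 0.00966), although not without MLL4 KO replicate 2 (0.0508), and was the only gene of its list to pass there. In BAP1 KO, 3 rose and 2 fell.

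The axon guidance list of NAV3 held higher genes in MLL4 KO and mostly lower ones in BAP1 KO, a difference that was not tested. Of 22 tested genes, 6 were higher and none lower in MLL4 KO, while 2 were higher and 6 lower in BAP1 KO. UNC5B, NTN4, SEMA4B and ROBO3 passed in both, in opposite directions. In control against WT their log2 fold changes were 1.71, 1.23, 1.74 and 1.52. The list genes that passed in only 1 knockout ran from -2.31 (SEMA3C) to -0.14 (PLXND1) in control against WT. Whether the opposite directions follow from the difference between the unedited groups was not tested. UNC5B, a netrin receptor gene, went from 55.3 and 48.2 CPM in WT to 141 and 139 CPM in MLL4 KO (1.44 ± 0.15, edgeR adjusted p 0.00265). It fell from 170 and 169 CPM in control to 97.8 and 74.1 CPM in BAP1 KO (-0.98 ± 0.15, edgeR adjusted p 0.00185). Both calls held with any 1 library left out. NTN4, a netrin gene, fell in BAP1 KO (-1.34 ± 0.22, edgeR adjusted p 0.00278) in all such fits, and its rise in MLL4 KO of 0.77 ± 0.22 held in none of them. NAV2, the closest tested relative of NAV3, was at -1.18 ± 0.26 in BAP1 KO (edgeR adjusted p 0.0126) and did not pass once any 1 of the 4 libraries was left out.

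Among microtubule genes related to STMN3, 4 of 8 rose and 1 fell in BAP1 KO, and 1 rose in MLL4 KO. STMN1, the ubiquitous stathmin, rose from 66.5 and 66.3 CPM to 242 and 199 CPM in BAP1 KO (1.73 ± 0.15, edgeR adjusted p 0.000153). In WT and MLL4 KO it stood at 221 to 280 CPM, and the difference was 0.01 ± 0.15. MAP1A, a microtubule-associated protein gene, rose from 1.49 and 1.36 CPM to 17.5 and 14.5 CPM (3.50 ± 0.44, edgeR adjusted p 0.00111). WT held 15.4 and 12.1 CPM of it, so control was the group apart and BAP1 KO lay near WT. MAP2, a dendritic one, fell from 18.4 and 17.3 CPM to 2.68 and 3.06 CPM (-2.63 ± 0.28, edgeR adjusted p 0.000443), with WT at 9.31 and 6.37 CPM. All 3 BAP1 KO calls held with any 1 library left out.

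The list of SHC2's partners included RET, a receptor tyrosine kinase of neural crest cells, which rose in both: 8.53 and 5.66 to 26.9 and 22 CPM in MLL4 KO, and 6.78 and 6.61 to 26.9 and 19.6 CPM in BAP1 KO. Its log2 fold change was 1.80 ± 0.24 in each, with edgeR adjusted p of 0.00573 and 0.00108, and it passed with any 1 library left out. With only the 4 libraries of WT and MLL4 KO in the fit, it did not pass in MLL4 KO. RET was the only 1 of 11 to pass in MLL4 KO, and GAB2 and SHC1 also rose in BAP1 KO. GAB2, a docking protein gene, was at 1.38 ± 0.22 and passed with any 1 library left out, while SHC1 at 0.81 ± 0.21 did not pass once any 1 of its 4 was left out.

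Among the channel genes and partners listed beside KCND3, KCNIP2, whose protein binds Kv4 channels, rose in BAP1 KO from 5.09 and 4.51 CPM to 7.82 and 7.55 CPM (0.69 ± 0.21, edgeR adjusted p 0.0459). It did not pass once any 1 of its 4 libraries was left out, nor with DESeq2.

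Synaptic vesicle and scaffold genes had 7 of 22 higher and none lower in MLL4 KO, and 4 higher and 2 lower in BAP1 KO. VAMP1, a vesicle SNARE gene, rose from 4.90 and 5.00 CPM to 17.4 and 13.7 CPM in BAP1 KO (1.65 ± 0.18, edgeR adjusted p 0.000487), also with any 1 library left out. SYT11, a vesicle protein gene, was at 0 and 0.128 CPM in the control libraries and at 1.69 and 0.677 CPM in BAP1 KO (edgeR adjusted p 0.00938), and did not pass without control replicate 1, control replicate 2 or BAP1 KO replicate 1. REST, which represses neuronal genes in other cells, was at 0.08 in MLL4 KO (edgeR adjusted p 0.683) and 0.29 in BAP1 KO (0.119). Of the 12 tested genes of its complex, 1 was higher and 3 lower in MLL4 KO, and 3 were higher and 0 lower in BAP1 KO. HDAC1, a histone deacetylase gene, rose in BAP1 KO from 197 and 198 CPM to 327 and 336 CPM (0.74 ± 0.11, edgeR adjusted p 0.00149) and passed with any 1 library left out. It was also higher in MLL4 KO (0.38 ± 0.10, edgeR adjusted p 0.0356), a call that held in 1 of 8 fits that left out a library. HDAC2 and RCOR2 fell in MLL4 KO, at -0.57 ± 0.14 and -0.66 ± 0.18 (edgeR adjusted p 0.0276 and 0.0336), and the RCOR2 call held in 1 of 8 such fits. RCOR2 and SIN3A rose in BAP1 KO, at 0.75 ± 0.17 and 0.56 ± 0.13 (edgeR adjusted p 0.0123 and 0.0165), and neither passed without control replicate 1 or control replicate 2. KDM1A fell in MLL4 KO (-0.67 ± 0.14, edgeR adjusted p 0.0156), although not without WT replicate 2 or MLL4 KO replicate 2.

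Across the 8 libraries, the pattern of each member was matched with all tested genes by Pearson's r of log2(CPM + 1), as a description, since the libraries share 4 groups. Each match named is the highest r over all tested genes, and other genes came close to it. SHC2 was most like DRAM1, at r = 0.995, TMEM132B like PDGFA-DT at 0.987, CELSR3 like RNF41 at 0.989 and NCAM1 like DHRS2 at 0.986. CNTNAP2 was most like CD33, at r = 0.983, which stood at 10.1 and 6.08 CPM in MLL4 KO and at 0.344 to 2.60 CPM elsewhere. NAV3 was most like MEF2C, a transcription factor gene, at r = 0.973. The others were LRP1B with SEPTIN4-AS1 at 0.980, GRIK2 with ADAMTSL4 at 0.973, STMN3 with RTBDN at 0.981 and KCND3 with CFAP52 at 0.983. Among the members, NCAM1 and CNTNAP2 were closest, at r = 0.958, then KCND3 and GRIK2 at 0.938, and NAV3 and TMEM132B were the most opposite, at -0.937. The members were chosen on MLL4 KO against WT, which favours such values among them, so nothing is read from these.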

How the data were processed

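RNA was measured by poly(A) RNA sequencing in 8 of the 23 samples, and the 15 ChIP samples were not analysed here. The authors deposited, per the file headers, a table per library with read counts and RPKM for RefSeq transcripts, and the submitters' processing notes name bcl2fastq, STAR, Bowtie2, SICER 1.1 and hg38. The read counter was not given in the sources used here. Each gene was represented by its transcript row of highest mean count, and 605 of 88819 rows with no symbol (0.230% to 0.252% of counts) were left out. Counts were scaled with TMM, filtered with filterByExpr and tested with edgeR 4.0.16 (quasi-likelihood, robust, R 4.3.3) in 1 fit over 4 groups of 2, two-sided, with Benjamini-Hochberg adjustment over 16831 genes and a threshold of 0.05. Standard errors came from the log2 fold change and its F value. Other fits used limma 3.58.1 and DESeq2 1.42.0. The code was tested on simulated data. Libraries of 1 group differed by more than counting noise, so none was counted as a repeat. CPM carries the counting error of 24817085 to 42220059 counts. RPKM was used only to order genes.

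The members and lists were chosen with earlier results of these data known. Named list genes passed in BAP1 KO at a mean of 1 CPM or more (up to 4 per list) or were among the 2 with the largest change in MLL4 KO, and the text describes some of these; some list genes are not reported here. Neighbours were the 3 nearest tested genes on each side, named from an absolute log2 fold change of 1. Other markers were tried in 5 lists: the glial list summed to 43.2 to 101 CPM and the fibroblast list to 25.7 to 55.2 CPM, with DCN and LUM at 0. Promoters and gene spans are RefSeq's on GRCh38.p14.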

Additional observations from a re-analysis of the deposited data

How the results depend on the processing

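Of 18 alternatives, scaling (RLE, upper quartile), filters, limma-voom, DESeq2, an older edgeR dispersion estimate and a crossed block (the last 2 chosen after seeing the data) kept both counts of called genes within 1.5 times. With only the 4 libraries of a comparison, MLL4 KO called 60 genes in place of 3219 and BAP1 KO 6659 in place of 3778. Replicate numbers did not pair the samples (r of deviations -0.19 for WT with MLL4 KO and -0.00 for control with BAP1 KO), and a replicate block gave 792 and 2481 calls, while crossed numbers gave 3998 and 4211. Of the 128 list genes the block called 8 higher and 3 lower in MLL4 KO and 22 and 10 in BAP1 KO. Leaving out each library, with a lone library assumed to vary like the other groups, gave 530 to 5290 calls in MLL4 KO and 1076 to 5015 in BAP1 KO, and 0 to 4 members called in BAP1 KO. The replicate block took NAV3 in BAP1 KO to an edgeR adjusted p of 0.0528, and the older dispersion estimate took TMEM132B to 0.0626. Directions turned only for members that did not pass in BAP1 KO. CNTNAP2 was at -0.78 with limma-voom and -0.073 with crossed numbers, and ran from -4.68 to 1.17 over left-out libraries. Its lowest value sets a BAP1 KO library with no read against control, and is no estimate. LRP1B ran from -0.62 to 0.28 and NCAM1 from -0.29 to 6.88 there. The last is a fit to control replicate 2 alone, which held no NCAM1 read. Against 3 reads in that library, the mean of BAP1 KO was 5.92-fold higher. This is no bound for the groups, since BAP1 KO replicate 1 at 0.128 CPM lay below control replicate 1 at 0.392 CPM. CNTNAP2 with 4 libraries, and CNTNAP2 and NCAM1 with a filter at 1 CPM in 4 libraries, gave no value. In MLL4 KO no member changed sign. Members under 1 CPM, with 0 to 24 reads, limit what the depth can show.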

Other observations

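Among genes with 1 to 20 reads, even read counts were more common than odd ones, at 56.4% to 58.7% per library. Among genes with over 1000 reads they made up 48.8% to 51.2%. Whether both ends of a fragment were counted was not tested.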
